A study of Mus musculus with 22 samples.

Results

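The genes described here are 37 genes of voltage-gated and potassium channels, 23 for potassium, 10 for calcium and 4 for sodium channels, of 20661 autosomal protein-coding genes in the annotation. The list was given by name and was chosen with earlier results of these data known. A peak was assigned to a gene when it overlapped the gene body or lay within 1 kb of it on mm10, and a differential site was assigned by the gene name in the authors' table. By this rule 10 of the 3467 cocaine peaks, 4 of the 725 saline peaks and 4 of the 947 called differential sites lay at these genes.

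The series profiled E2F3a, a transcription factor of the E2F family, in the nucleus accumbens (NAc). The assay was CUT&RUN, where a nuclease tethered through an antibody releases the DNA around the bound protein. Wild-type C57BL/6J mice of both sexes received cocaine at 20 mg/kg or saline by intraperitoneal injection for 7 days, and nuclei came from frozen bilateral punches of the NAc. The labels list 7 cocaine E2F3a libraries, 2 female and 5 male, and 4 saline E2F3a libraries, 2 female and 2 male. The antibody was diluted 1 in 50, and a control immunoglobulin at 1 in 100 was applied to another share of the nuclei. Those control libraries were not analysed here, and whether the authors' background values drew on them is not known. A punch holds many cell types, so the values are averages over neurons and glia, and the labels do not say whether a library came from 1 animal or from several. Each peak list pools both sexes of 1 treatment, so peaks have no replicates. The table of differential sites gives a normalized count for 6 cocaine and 4 saline libraries without their names. They are numbered here as the table orders them, as cocaine 1 to 6 and as saline 1 to 4. The sex of each value is therefore not known.

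Voltage-gated channels open when the membrane potential changes. Sodium channels carry the upstroke of the action potential, potassium channels repolarize the membrane and set how readily a neuron fires again, and calcium channels couple activity to transmitter release and to signalling in the cell. Medium spiny neurons, the main cells of the NAc, are held at a negative resting potential by potassium conductances. E2F proteins are known above all as regulators of the genes of DNA replication and the cell cycle, which they bind close to the transcription start.

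The potassium genes held 9 of the 10 cocaine peaks and all 4 saline peaks at these genes. In the cocaine list 9 of 23 potassium genes had a peak (39.1%, exact 95% interval 19.7 to 61.5%), against 1 of 10 calcium genes (interval 0.253 to 44.5%) and 0 of 4 sodium genes, where the interval reaches 60.2%. For the 37 genes together the share was 27.0% (13.8 to 44.1%), against 10.1% of all protein-coding genes. In the saline list 4 of 23 potassium genes had a peak (17.4%, 4.95 to 38.8%), against 0 of 10 calcium genes, with an interval up to 30.8%, and 0 of 4 sodium genes. For all 37 genes it was 10.8% (3.03 to 25.4%), against 1.89% of protein-coding genes. The intervals cover counting error only, and those of the 3 classes overlap. They do not cover how the genes were chosen, which was with earlier results of these data known. Shares above those of all genes are therefore not evidence of enrichment. A difference between the classes was not tested.

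The channel genes were long. The median length was 280 kb over the 37 genes, 280 kb for potassium, 413 kb for calcium and 158 kb for sodium channels, against 17.5 kb for all genes. A long gene has more room for a peak, so peaks were also counted per length. The 37 genes had 0.846 cocaine peaks per Mb, against 1.88 per Mb for all genes. Potassium genes had 1.26, calcium genes 0.246 and sodium genes 0 cocaine peaks per Mb. At the density of all genes, the length of the 37 genes would hold 22.2 cocaine peaks, and 10 were listed. Calcium genes would hold 7.62 and had 1, potassium genes 13.4 and had 9, and sodium genes 1.15 and had 0. In the saline list the 37 genes had 0.338 peaks per Mb, against 0.335 per Mb for all genes, with 0.559 per Mb at potassium genes. The share per gene was thus above that of all genes in both lists, while the density was below it in the cocaine list and close to it in the saline list.

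**Figure D1:**
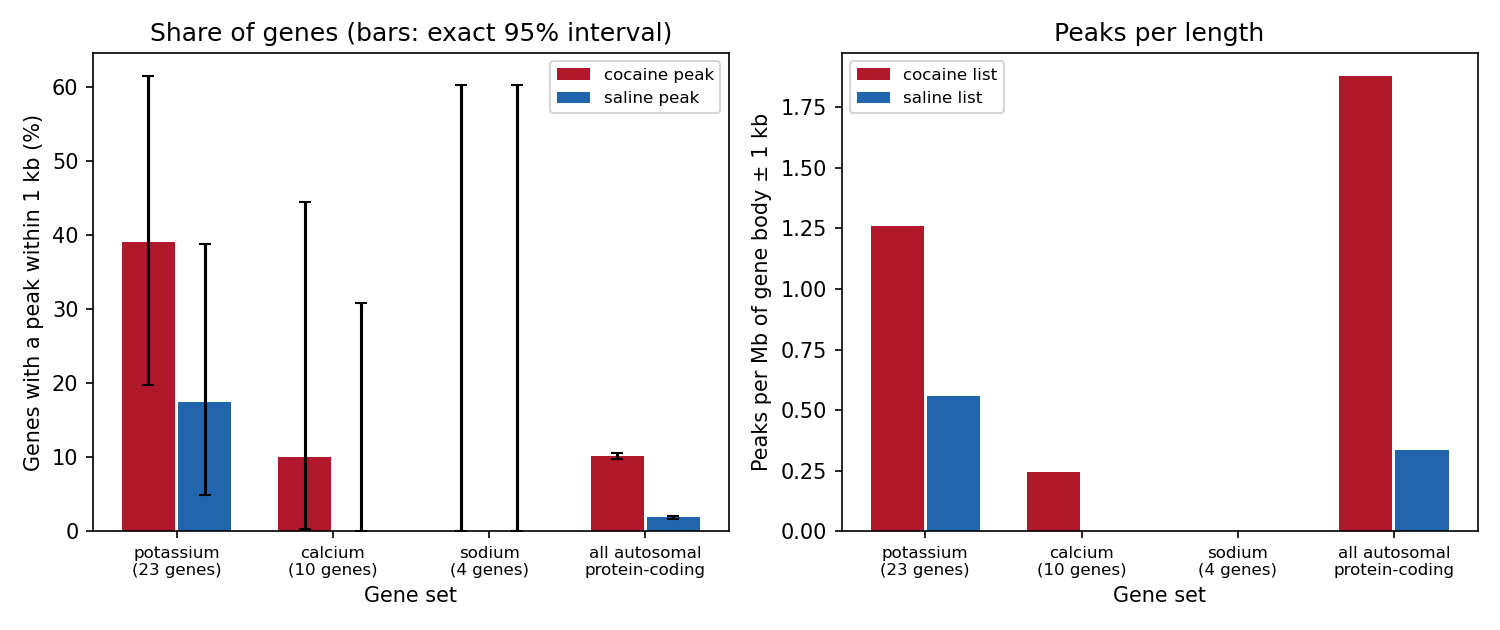
Left, the share of genes with a peak within 1 kb (percent, bars with exact 95% intervals) for potassium, calcium and sodium channel genes and for all autosomal protein-coding genes. Right, peaks per Mb of gene body ± 1 kb for the same sets. Potassium genes had the highest share, 39.1% in the cocaine list and 17.4% in the saline list, while the cocaine density of all genes, 1.88 per Mb, was above the 1.26 per Mb of potassium genes.

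Peaks at the ends of genes and peaks inside them were also counted apart. Of the 37 genes, 3 had a cocaine peak within 1 kb of a gene end (8.11%), against 6.02% of all genes, and 2 had a saline peak there (5.41%), against 0.949%. Inside the gene bodies there were 7 cocaine peaks, 0.600 per Mb against 1.03 per Mb for all genes, and 2 saline peaks, 0.171 per Mb against 0.211. The 3 genes with a cocaine peak at an end were Kcnn3, Kcnq5 and Kcna1, all potassium channels.

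Kcnn3, which encodes a small-conductance calcium-activated potassium channel that slows firing after a burst, had a peak at its start in both lists. The cocaine peak, chr3:89519535-89520008, had a fold enrichment of 3.21 over the background of the peak caller with q = 0.0062. By fold it ranked 3232 of 3467, and its summit lay 229 bp before the start. The saline peak, chr3:89519540-89519924, had a fold of 3.76 with q = 9.6e-05 (rank 372 of 725), and its summit lay 397 bp before the start. Folds and q values are the authors', and folds of different lists are not compared. The RefSeq table of GRCm38.p6 held promoters, each from 250 bases before the start to 50 after it, for 30 of the 37 genes. Kcna1, Kcnn2 and Kcnq3, which had peaks, were among the 7 without an entry, so their promoters were not compared with peaks. Among the 30 genes, the Kcnn3 promoter was the only one that overlapped a peak, with 95 bases shared with the cocaine peak and 11 with the saline peak. Its 250 bases before the start are shown because they hold the edge of the peak, chr3:89519914-89520163, plus strand, 5′ to 3′, with the bases inside the cocaine peak in capitals.
Kcnn3: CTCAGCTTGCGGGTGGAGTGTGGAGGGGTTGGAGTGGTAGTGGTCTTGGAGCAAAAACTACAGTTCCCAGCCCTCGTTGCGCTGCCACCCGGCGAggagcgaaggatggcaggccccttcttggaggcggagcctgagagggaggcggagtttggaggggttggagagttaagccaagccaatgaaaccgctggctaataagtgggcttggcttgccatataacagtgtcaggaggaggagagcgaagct
The peak covered the far part of the promoter, and most of it lay further from the start than these bases. The stretch is 58.8% G or C with 10 CpG dinucleotides.

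The letters of known E2F sites were searched in the promoters on both strands. The motifs were TTTGGCGC, TTTCGCGC, TTTCCCGC and TTTGCCGC, and the shorter core GCGGGAA, whose reverse complement lies inside TTTCCCGC. The 30 genes had 47 promoters. One of the longer motifs was in 2 of 47 promoters (4.26%), against 2.26% of 32851 promoters of all genes, and the core in 2 (4.26%), against 4.60%. Either was in 4 (8.51%), against 5.72%, with 3 of 27 for potassium, 1 of 15 for calcium and 0 of 5 for sodium channel genes. The median share of G and C was 62.7% in these promoters, against 52.7% in all.

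The matches were in Kcnh1, Kcnh5, Kcnip1 and Cacna1c, and they began 134 (Kcnh1) and 214 (Kcnh5) bases before the start and 41 (Kcnip1) and 4 (Cacna1c) bases after it. None of these 4 promoters overlapped a peak. The promoters of Kcnh1, chr1:192190527-192190776, plus strand, and Kcnh5, chr12:75177333-75177582, minus strand, are shown because the match lies before the start, with the motif in capitals as the gene's strand reads it (the reverse complements of GCGGGAA and TTTGGCGC).
Kcnh1: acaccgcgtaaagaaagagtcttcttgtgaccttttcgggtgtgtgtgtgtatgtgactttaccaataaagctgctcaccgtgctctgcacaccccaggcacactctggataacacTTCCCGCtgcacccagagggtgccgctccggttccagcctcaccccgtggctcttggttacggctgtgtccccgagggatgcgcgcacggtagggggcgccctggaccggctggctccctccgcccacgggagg
Kcnh5: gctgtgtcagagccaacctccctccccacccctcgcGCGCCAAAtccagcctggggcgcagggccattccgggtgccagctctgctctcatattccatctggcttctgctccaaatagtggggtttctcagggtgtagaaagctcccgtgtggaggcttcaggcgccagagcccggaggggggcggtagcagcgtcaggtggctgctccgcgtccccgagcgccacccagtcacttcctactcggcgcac
Kcnh1 had a cocaine peak, but 40362 bp from the nearest listed start, and the nearest cocaine peak to Kcnh5 was 757 kb away. The Kcnn3 promoter, which overlapped a peak in both lists, held none of the motifs in the 300 bases searched.

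Kcnh1 encodes a slow voltage-gated potassium channel of the ether-à-go-go family. It held the peak with the highest fold of the 37 genes, chr1:192229947-192231774 in the cocaine list, with a fold of 12.3 and q = 1.3e-26. That was rank 53 of 3467, and 1.5% of the list was higher. At 1828 bp it was also wide, against a median of 487 bp for the list. It lay inside the gene, 42.0 kb from the end with the lower coordinate. The nearest saline peak was 1408 kb from the gene, against a median of 1610 kb over the 33 genes without a saline peak.

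**Figure D2:**
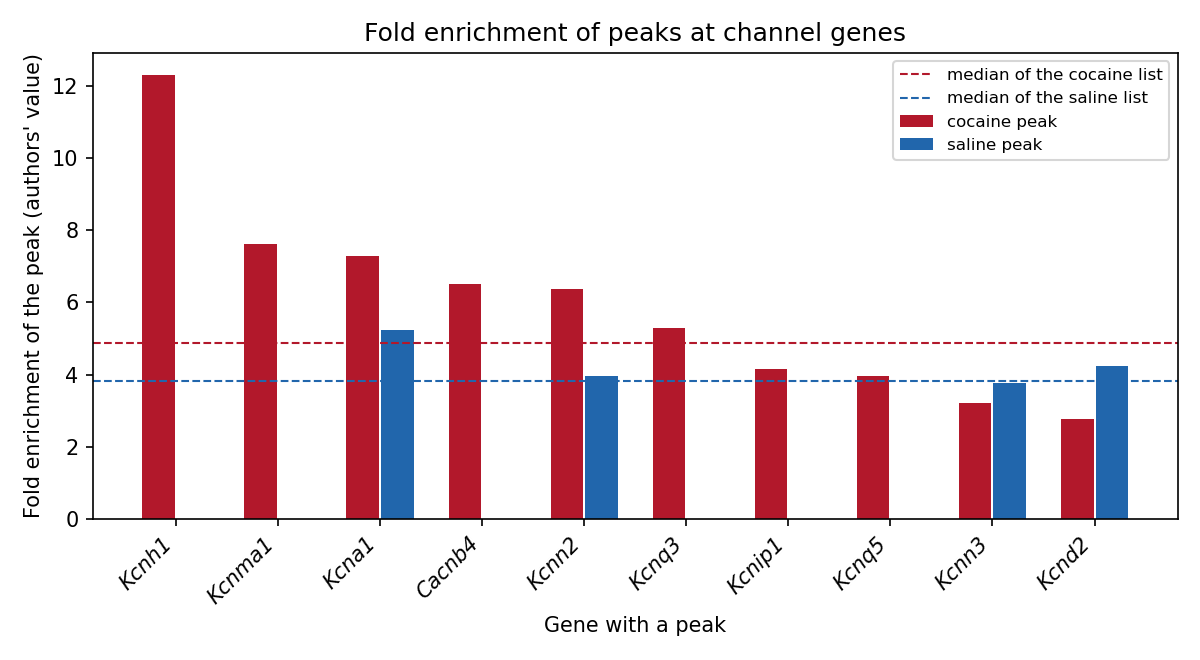
Fold enrichment (ratio over the caller's background, the authors' value) of each peak at the channel genes, cocaine left of saline, with the median of each list as a dashed line. Kcnh1 stands highest at 12.3, 6 of the 10 cocaine peaks lie above their list's median of 4.88, and 3 of the 4 saline peaks above theirs of 3.82.

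Of the other voltage-gated potassium genes, Kcna1, Kcnd2, Kcnq3 and Kcnq5 had a cocaine peak. Kcna1, a low-threshold delayed rectifier of axons, had its peak across the gene end with the higher coordinate, at chr6:126645487-126646198, with a fold of 7.30 and q = 1.2e-11 (rank 452). The saline peak at the same end, chr6:126645492-126646086, had a fold of 5.25 (rank 106 of 725) and lay wholly inside the cocaine peak. Kcnd2 encodes the main channel of the A-type current in dendrites. Its cocaine peak, chr6:21439874-21440806, was 225 kb into the gene and had the lowest fold of the 10, 2.76, at rank 3401 of 3467, though its q was 1.5e-05. Its saline peak, chr6:21439985-21440676, had a fold of 4.25 and q = 1.4e-10, at rank 264 of 725.

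Kcnq3 and Kcnq5 encode subunits of the M current, which muscarinic receptors close. The Kcnq3 peak, chr15:66057526-66058090, lay 71.4 kb into the gene from the lower coordinate with a fold of 5.30 and q = 1.8e-06. The Kcnq5 peak, chr1:21963178-21963539, lay outside the gene with its summit 815 bp before the start, a fold of 3.96 and q = 0.0015. Neither gene had a saline peak, and the nearest was 99.6 kb from Kcnq3 and 95.1 kb from Kcnq5. Kcnq5 was the member just inside the limit of 1 kb, with its peak at 0.528 kb, and Kcnn1 the one just outside it, at 3.17 kb in the cocaine list.

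Channels opened by ions made up 3 of the 9 potassium genes with a cocaine peak. Beside Kcnn3, Kcnn2, another small-conductance channel, had a cocaine peak at chr18:45462751-45463604 with a fold of 6.37 and q = 1.9e-10, 194 kb into the gene and also within 1 kb of the predicted gene Gm31907. The saline peak there, chr18:45462789-45463473, had a fold of 3.97 and q = 1.9e-05. Kcnma1 encodes the large-conductance channel opened by calcium and voltage together. Its cocaine peak, chr14:23885793-23886174, had the second fold of the group, 7.62, with q = 5.4e-14 (rank 380), and lay 119 kb from the nearer gene end. The nearest saline peak was 1791 kb from Kcnma1, against the median of 1610 kb over the genes without a saline peak.

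Among auxiliary subunits, 1 potassium and 1 calcium gene had a cocaine peak, both inside the gene. Kcnip1 encodes a calcium-binding partner of the A-type channels, and its peak, chr11:33724743-33725009, had a fold of 4.16 and q = 0.00014 (rank 2556). Cacnb4 encodes a beta subunit that brings calcium channels to the membrane. Its peak, chr2:52509919-52510254, was the only one at a calcium channel gene, with a fold of 6.52 and q = 4.9e-08 (rank 686).

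Each of the 4 saline peaks overlapped the cocaine peak of the same gene, by 385 to 692 bp, and of the whole saline list 77.5% overlapped a cocaine peak. Turned round, 4 of the 10 cocaine peaks shared bases with a saline peak, against 15.7% of the cocaine list. The median fold was 5.83 over the 10 cocaine peaks (2.76 to 12.3), against 5.14 over 1958 cocaine peaks at protein-coding genes, and 4.11 over the 4 saline peaks (3.76 to 5.25), against 4.17 over 349. No peak at these genes overlapped a listed differential site.

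**Figure D3:**
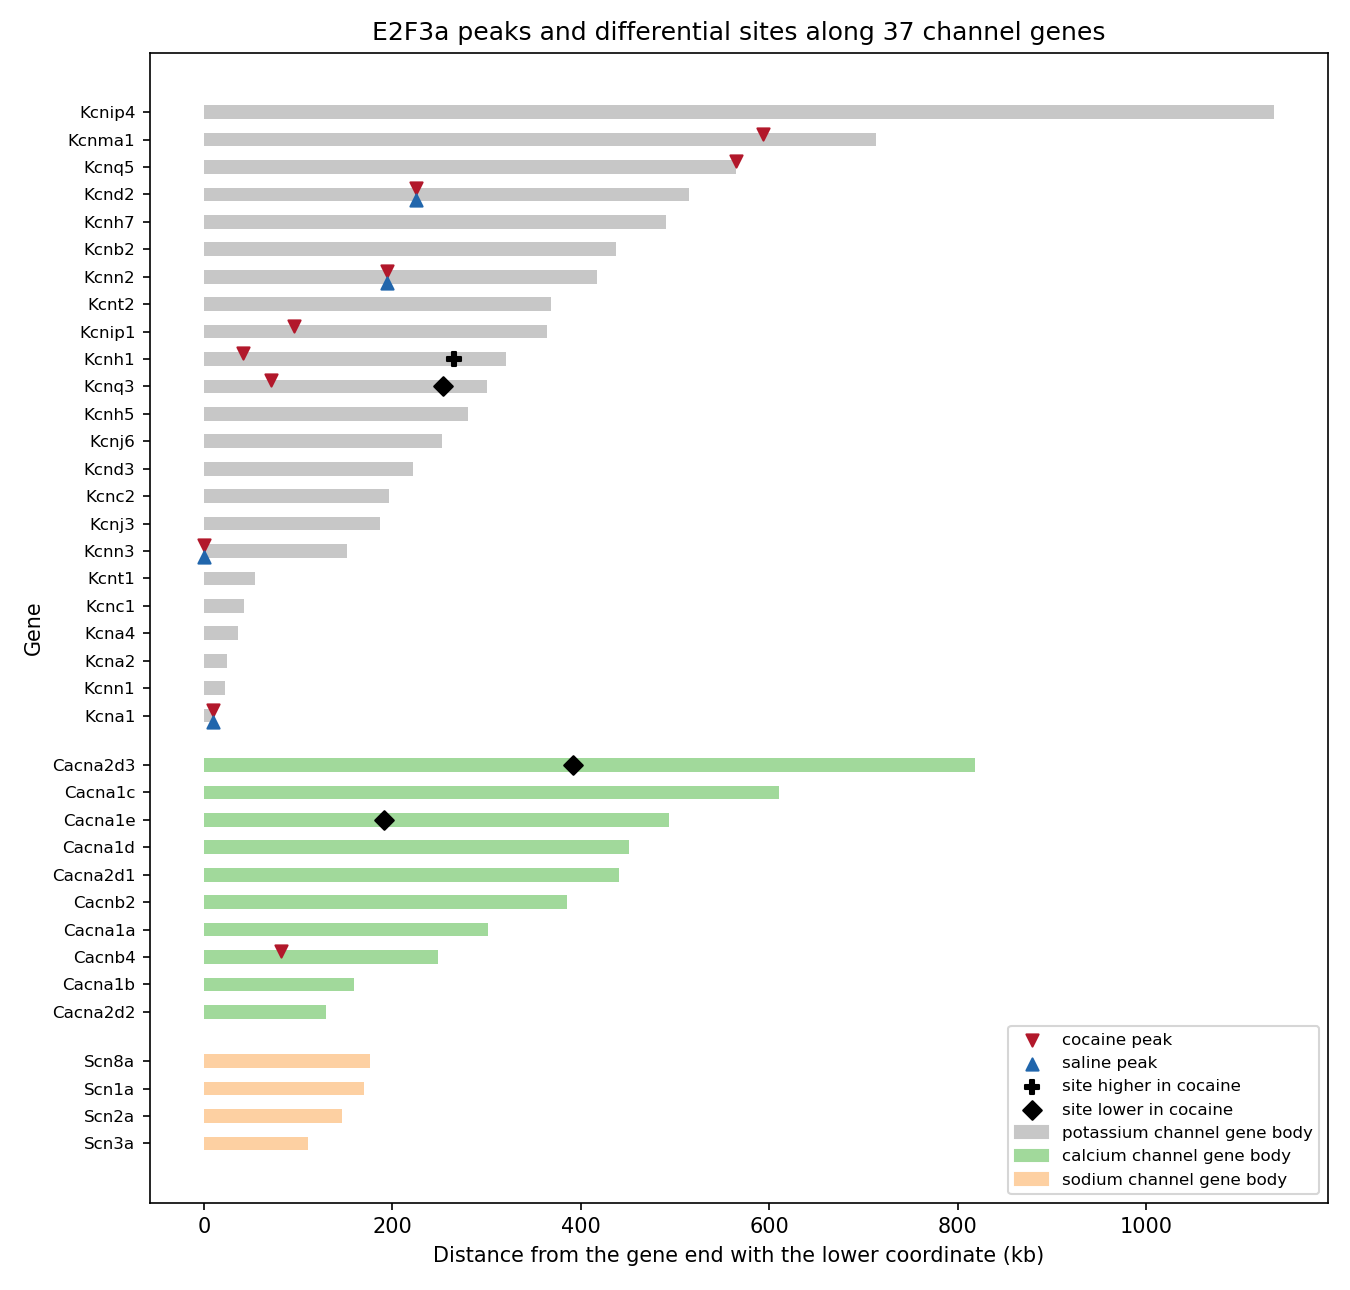
The 37 genes drawn to scale, with distance from the gene end of lower coordinate (kb) on the horizontal axis and genes grouped by class and sorted by length. Triangles mark the midpoints of cocaine and saline peaks, and black signs those of the differential sites. The 4 saline peaks lie on cocaine peaks, and the 4 differential sites lie away from both.

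Of 37 genes, 27 had no cocaine peak within 1 kb, and the nearest one to each was 3.17 to 2030 kb away, with a median of 251 kb. After Kcnn1 the nearest were 6.05 kb for Kcnj6, an inward rectifier opened by G proteins, 8.55 kb for Cacna2d3, 14.3 kb for Kcna2 and 19.5 kb for Kcnd3. Distances differed among the sodium channel genes. Scn1a, Scn2a and Scn3a, which neighbour each other on chromosome 2, had their nearest cocaine peak 1809 to 2030 kb away, while Scn8a had it 222 kb away, nearer than the median. Each is the pore-forming subunit of a neuronal sodium channel. The pore-forming calcium channel genes Cacna1a, Cacna1b, Cacna1c, Cacna1d and Cacna1e also had none, with distances of 132 to 1144 kb.

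Neither a peak nor a called site was found at 25 of the genes, 14 for potassium, 7 for calcium and all 4 for sodium channels. The potassium genes among them were Kcnh5, Kcnh7, Kcnn1, Kcna2, Kcna4, Kcnb2, Kcnc1, Kcnc2, Kcnd3, Kcnj3, Kcnj6, Kcnip4, Kcnt1 and Kcnt2. The calcium genes were Cacna1a, Cacna1b, Cacna1c, Cacna1d, Cacna2d1, Cacna2d2 and Cacnb2. Kcnip4, at 1136 kb the longest of the 37, had its nearest cocaine peak 142 kb away. Kcnh1 and Kcnq3 had both a cocaine peak and a called site.

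Of the 37 genes, 3 had a site lower in cocaine by the authors' deposited table (8.11%), against 1.90% of protein-coding genes, and 1 had a higher site (2.70%), against 1.07%. In either direction it was 4 genes (10.8%), against 2.92%. Lower sites were at the potassium gene Kcnq3 and the calcium genes Cacna1e and Cacna2d3, and the higher site was at the potassium gene Kcnh1. By class that was 2 of 23 potassium, 2 of 10 calcium and 0 of 4 sodium genes. Per length of gene body ± 1 kb the 37 genes had 0.338 called sites per Mb, against 0.690 per Mb for all genes. At that density their length would hold 8.16. Sites were counted by gene name wherever they lay, so the value for all genes also takes in sites outside that length. The densities are therefore not like for like, and no deficit can be read from them. All 4 sites were in introns, as were 22.9% of called sites. By the authors' adjusted p they ranked 575 to 823 of the 956 listed sites.

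The values of each library were read from that table. The libraries differed in the weight of a read. The normalized count worth 1 read was 0.64 to 1.30 in cocaine 1 to 4 but 2.21 in cocaine 5 and 1.71 in cocaine 6, and it was 0.38 to 0.64 in saline 1 to 3 but 1.88 in saline 4. The median site held 13 to 25 reads in a cocaine library and 14 to 48 in a saline library. The sites were selected by the authors on these libraries, so tests on the library values describe how far the groups overlap and are not independent evidence. By an exact two-sided permutation test of the mean, with a smallest possible p of 0.0095, 2 of the 4 sites, Cacna1e and Cacna2d3, had p below 0.05, as did 59.4% of the 956 listed sites. By direction that was 2 of the 3 lower sites, against 90.3% of called lower sites, and 0 of 1 higher sites, against 28.5% of called higher sites.

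At Cacna2d3 the groups did not overlap. The gene encodes an alpha-2-delta subunit, which moves calcium channels to the surface. The site, chr14:29295802-29296900, lay in intron 10 of 37, 36835 bp from the nearest start. The cocaine libraries had normalized counts of 18, 14.6, 19.1, 10.4, 6.64 and 3.42, against 26.6, 36.2, 24.9 and 43.2 in the saline libraries. All 6 cocaine values were below the lowest saline value. Of the called lower sites, 48.1% had groups that did not overlap. The means were 12.0 ± 6.29 in cocaine (SD, n = 6) and 32.8 ± 8.57 in saline (SD, n = 4). The authors' deposited table gave a log2 fold change of -1.45 with an adjusted p of 0.0037, and an enrichment over background of 2.38 in cocaine and 3.05 in saline. The exact permutation test gave p = 0.0095, the smallest it can give, and 0.032 after adjustment over all listed sites, where 44.2% of all listed and 70.7% of called lower sites passed. By limma on log2(normalized count + 1) the difference was -1.52 with an adjusted p of 0.044, where 36.9% of all listed and 61.4% of called lower sites passed. Cocaine 5 and 6, with 3 and 2 reads, were lowest, and without them the log2 ratio was -1.08 (exact permutation p = 0.029).

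At Cacna1e, which encodes the pore of the R-type calcium channel, 5 of 6 cocaine libraries were below the lowest saline library. The site, chr1:154581802-154582800, lay in intron 6 of 46, 105106 bp before the nearest start. The cocaine libraries had normalized counts of 1.92, 17.7, 10.1, 10.4, 8.85 and 13.7, against 14.1, 19.7, 21.9 and 35.7 in the saline libraries. Only cocaine 2 lay above the lowest saline value, so the groups overlapped in that library. The means were 10.4 ± 5.26 in cocaine (SD, n = 6) and 22.9 ± 9.17 in saline (SD, n = 4). The log2 fold change in the authors' deposited table was -1.13 with an adjusted p of 0.0035, and the enrichment was 0.73 in cocaine and 3.29 in saline. The exact permutation test gave p = 0.019 (adjusted 0.043), and limma a difference of -1.18 with an adjusted p of 0.058. Without cocaine 5 and 6 the log2 ratio was -1.19, with an exact permutation p of 0.057.

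At Kcnq3 the size of the difference turned on 1 saline library, while 5 of 6 cocaine libraries were below the lowest saline library. The site, chr15:66239902-66240900, lay in intron 1 of 14, 45742 bp from the nearest start and 182 kb from the gene's own cocaine peak. The cocaine libraries had normalized counts of 8.98, 3.12, 9.05, 13.0, 2.21 and 3.42, against 9.23, 11.4, 11.9 and 48.9 in the saline libraries. Saline 4 stood far above the other 9 libraries, and cocaine 4 was above 3 of the 4 saline libraries. Cocaine 1 and 3, at 8.98 and 9.05, were only just below the lowest saline value of 9.23. The log2 ratio of the group medians was -0.91. The means were 6.63 ± 4.33 in cocaine (SD, n = 6) and 20.4 ± 19.0 in saline (SD, n = 4). The authors' deposited table gave a log2 fold change of -1.62 with an adjusted p of 0.0024, and an enrichment of 0.62 in cocaine and 3.39 in saline. The exact permutation p was 0.076 (adjusted 0.12), and limma gave -1.36 with an adjusted p of 0.053. Without saline 4 the log2 ratio was -0.71 (exact permutation p = 0.19). The cocaine values rested on 1 to 14 reads and the saline values on 17 to 31.

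At Kcnh1 the difference turned on 2 cocaine libraries. The site, chr1:192454102-192455100, lay in intron 10 of 10, 19362 bp from the nearest start, and 222 kb from the gene's strong cocaine peak. The cocaine libraries had normalized counts of 18, 13.5, 27.2, 31.1, 59.7 and 70.1, against 17.4, 21.0, 21.1 and 16.9 in the saline libraries. Cocaine 5 and 6 were highest, cocaine 1 lay among the saline values and cocaine 2 below them. The means were 36.6 ± 23.1 in cocaine (SD, n = 6) and 19.1 ± 2.26 in saline (SD, n = 4). The log2 fold change in the authors' deposited table was 0.94 with an adjusted p of 0.0018. The enrichment was below 1 in both groups, 0.84 in cocaine and 0.49 in saline. The exact permutation p was 0.15 (adjusted 0.20), and limma gave 0.68 with an adjusted p of 0.20. After adjustment 18% of called higher sites passed the permutation test and 13.1% passed limma. Without cocaine 5 and 6, which had the largest count per read of the cocaine libraries, the log2 ratio was 0.23 (exact permutation p = 0.46). Of the called higher sites, 11.4% had groups that did not overlap.

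**Figure D4:**
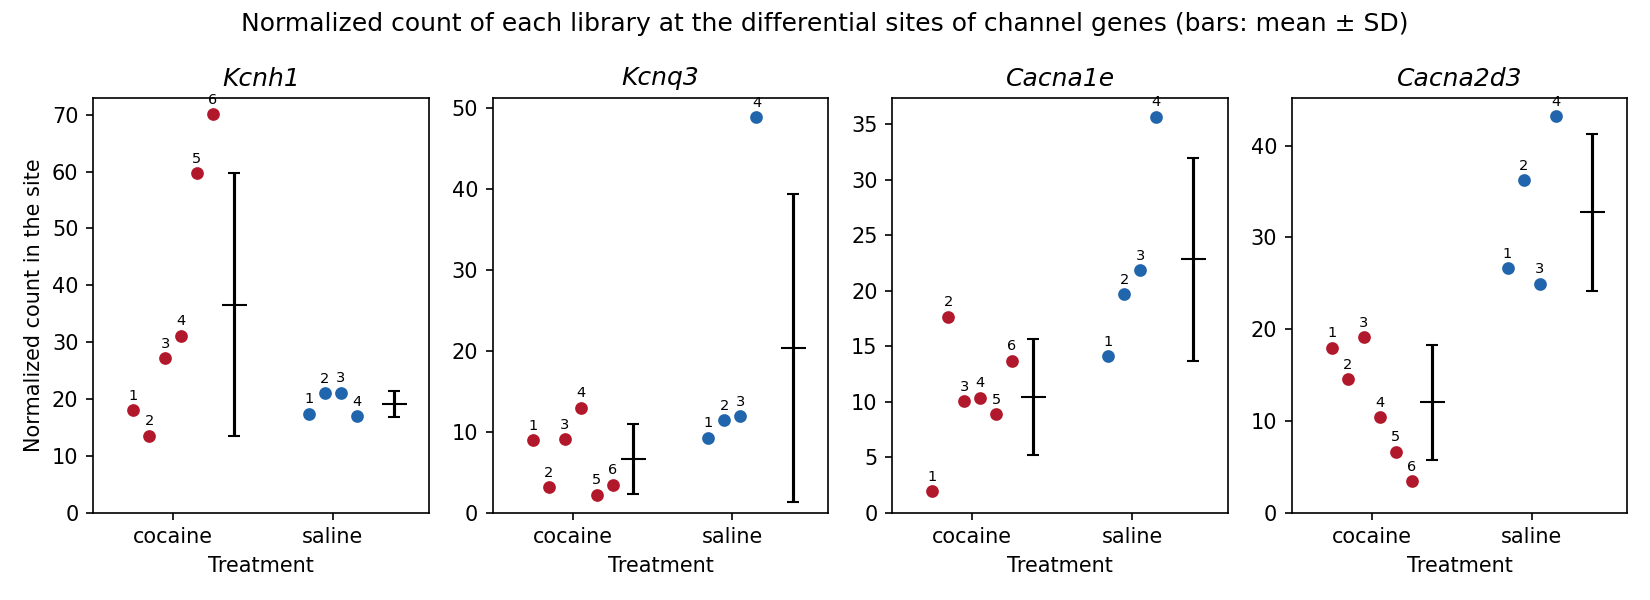
Normalized count of each library (points, numbered in the order of the authors' table) at the 4 differential sites, cocaine left of saline, with mean ± SD. The groups are apart only at Cacna2d3, and saline 4 at Kcnq3 (48.9) and cocaine 5 and 6 at Kcnh1 (59.7 and 70.1) stand away from the rest of their groups.

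**Figure D5:**
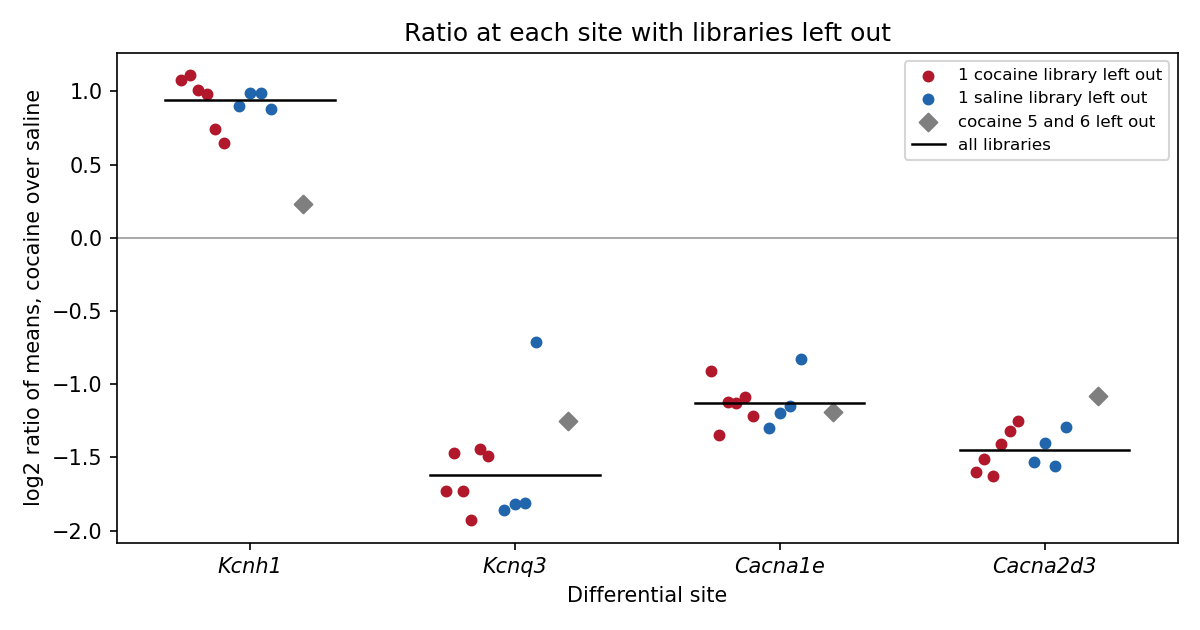
The log2 ratio of the mean normalized count in cocaine to that in saline at each site, with all libraries (line), with 1 library left out (circles) and without cocaine 5 and 6 (diamond). With 1 library left out the ratio stays between -1.63 and -1.25 at Cacna2d3 and between 0.65 and 1.11 at Kcnh1. At Kcnq3 it reaches -0.71 without saline 4. Without cocaine 5 and 6 it is -1.08 at Cacna2d3 and 0.23 at Kcnh1.

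Another 97 autosomal genes carry names of the same channel families, 68 for potassium, 15 for calcium and 10 for sodium channels and 4 Hcn genes. Of these 8 had a cocaine peak (8.25%) and 0 had a saline peak. By class, 4 of 68 potassium genes had a cocaine peak (exact 95% interval 1.63 to 14.4%), with 1.08 peaks per Mb. For calcium genes it was 3 of 15 (4.33 to 48.1%) with 4.43 per Mb, which rests on 4 peaks over 0.902 Mb. For sodium genes it was 1 of 10 (0.253 to 44.5%) with 1.49 per Mb, and no Hcn gene had one. Potassium genes thus had the lowest share and density of these 3 classes here, but the highest among the 37. The intervals overlap, and the difference was not tested. The 5 highest folds were 7.49 at Scn3b, a sodium channel beta subunit, 6.96 at Cacng2, which encodes stargazin, a partner of AMPA receptors, and 6.07 at Kcnh3, 5.58 at Kcnh4 and 5.49 at Kcnh2, relatives of Kcnh1. The Scn3b peak, chr9:40268598-40269232, overlapped the gene end, so a sodium channel gene outside the 37 did hold a peak. Cacna2d4, with peaks at 5.17 and 3.39, Cacng7 and Kcnab1 were the others. Both Cacna2d4 peaks also lay within 1 kb of the gene Lrtm2. The Cacng2 peak also lay within 1 kb of Gm46520 and the Kcnh3 peak within 1 kb of Gm46538.

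Of the 97 genes, 2 had a called site (2.06%), against 2.92% of protein-coding genes. A further site, chr6:119313102-119314600, lay in Cacna2d4 but is named for Lrtm2 in the authors' deposited table, which gave it a log2 fold change of -1.33 with an adjusted p of 0.00024. Kcnab1, a beta subunit of the Kv1 channels, had a higher site at chr3:65195402-65197400, and this one overlapped the gene's cocaine peak. That peak had a fold of 3.19, at rank 3248 of 3467. The enrichment of the site was below 1 in both groups, 0.85 in cocaine and 0.52 in saline. Peak and site also lay within 1 kb of the gene A330015K06Rik. The cocaine libraries had normalized counts of 25, 21.8, 46.3, 55.8, 115 and 113, against 36.9, 24.2, 32.6 and 22.6 in the saline libraries. As at Kcnh1, cocaine 5 and 6 were highest, cocaine 1 lay among the saline values and cocaine 2 below them. The authors' deposited table gave a log2 fold change of 1.11 with an adjusted p of 0.00024, the exact permutation p was 0.13, and without cocaine 5 and 6 the log2 ratio was 0.36. Kcnv1, a silent subunit that modifies other Kv channels, had a lower site at its promoter, chr15:45112902-45114300. The cocaine libraries had 16.1 to 21.8 normalized counts (median 17.9), against 17.9, 40.1, 25.7 and 54.5 in the saline libraries. The authors' deposited table gave a log2 fold change of -0.91 with an adjusted p of 0.0052, and the exact permutation p was 0.038 (adjusted 0.068), with 0.024 to 0.095 when 1 library was left out. Cocaine 2 was highest of its group and still below 3 of the 4 saline libraries.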

How the data were processed

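The authors deposited 1 peak list per treatment and a table of differential sites on mm10, per the submitters' processing notes. Each peak has the fold enrichment (a ratio) and the −log10 q of the authors' peak caller, with q of at most 0.01 in the lists. The authors' table comes from diffReps and gives their log2 fold change, p-value, adjusted p-value, mean normalized signal and enrichment ratio per group. It also gives a deposited normalized count per library, 6 cocaine and 4 saline. The sources used here do not give the aligner, the settings of the callers or the use of the control immunoglobulin. Another 2 control libraries with conflicting treatment labels stayed in no group.

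Genes came from RefSeq (GRCm38.p6, the same build as mm10), and all autosomal protein-coding genes served as background. A site counted as called where the adjusted p given by the authors was below 0.05 (947 of 956). Within a library the normalized counts were whole multiples of 1 value, within 0.1 of it for 100.0% of values up to 20 reads, which gave the reads. Total depth is unknown, since the table holds listed sites only, with 46536 to 102631 reads per cocaine library and 41437 to 153621 per saline library. Of 21 pairs of libraries within a group, 0 were identical. P-values measure the spread between these libraries, which may be technical.

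Tests were an exact permutation test over all 210 assignments of the libraries and limma 3.58.1 (R 4.3.3) on log2(normalized count + 1), a scale that understates the change of low sites. Both ran over all 956 sites with Benjamini-Hochberg adjustment, in Python 3.11.15 with scipy 1.17.1, and were tested on simulated data. The simulated sites were not selected by a call and shared a fixed spread, so that check does not cover sites chosen by the authors. The members and lists were chosen with earlier results of these data known. Every member with a peak or called site is named, and of other channel genes those with the 5 highest peaks or a called site. Alternatives covered the window, fold, q and adjusted p limits, the pseudocount and libraries left out.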

Additional observations from a re-analysis of the deposited data

Results flagged for a closer look

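At the Kcnq3 site the highest of the 4 saline libraries, saline 4, had a normalized count of 48.9. Its gap to the next value was 0.933 of the range of the group, above Dixon's critical value of 0.829 for 4 values. This was 1 of 12 groups tested at the sites of channel genes, and chance flags about 1 in 20 groups. Saline 4 had 26 reads there, against 17 to 31 in the other saline libraries, and 1.88 normalized counts per read, against 0.38 to 0.64. The part of this in the value was not tested.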

How the results depend on the processing

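The count of genes with a cocaine peak was 10, and became 6 at a fold of 5 or more and 2 (Kcnh1 and Kcnma1) when the cocaine list was shortened to the length of the saline list, an alternative added after seeing the data. It was 8, without Kcnn3 and Kcnq5, at a q of 0.001 or less, and likewise when a peak had to overlap the gene body. The count with a saline peak was 4, and became 1 (Kcna1) at a fold of 5 or more. It was 3, without Kcnn3, when a peak had to overlap the gene body. The count with a higher site was 1, and became 0 at an absolute log2 fold change of 1 or more. The count of sites past the exact permutation test was 2 at an unadjusted p below 0.05. It became 1 (Cacna2d3) without cocaine 5 and 6. By limma it was also 1 (Cacna2d3), over all sites and on sites with a mean normalized count of at least 10. The limma counts used an adjusted p below 0.05, so both the test and the threshold differ there. It became 0 without cocaine 5, cocaine 6 and saline 4, added after seeing the data, where the smallest possible p was 0.057. With 1 library left out it ran from 2 to 3, with Kcnh1 added without cocaine 2 (exact p = 0.048) and Kcnq3 without cocaine 4 (exact p = 0.016). Of 36 counts under alternatives 28 were within 1.5 times the value reported. Of the log2 ratios under alternatives none changed sign, 81 moved by less than 1 pooled SD between libraries and 3 moved further. That SD was wide, 0.72 at Kcnh1, 0.94 at Kcnq3 and 0.82 at Kcnab1 in log2 units. The 81 thus include 0.23 at Kcnh1 and 0.36 at Kcnab1 without cocaine 5 and 6, and -0.71 at Kcnq3 without saline 4. Without cocaine 5, cocaine 6 and saline 4 the ratio was 0.18 at Kcnh1, -0.35 at Kcnq3 and 0.25 at Kcnab1, against 0.94, -1.62 and 1.11 with all libraries. The cause of these moves was not tested. No paired analysis was possible because the values of the table carry no library names. Reads are few throughout, with a median of 13 to 25 per listed site in a cocaine library and 14 to 48 in a saline library, and 1 read is worth the most normalized counts, 1.71 to 2.21, in cocaine 5, cocaine 6 and saline 4.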
